A study of Homo sapiens with 24 samples.

Results

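NPY and SST encode the peptides neuropeptide Y and somatostatin, and SSTR2 encodes a somatostatin receptor. The question put to the arrays was at what level each transcript is present by cell line, transgene and time, and whether a peptide and a receptor for it are present in the same culture. NPY was read from probe UKv4_A_23_P256470, SSTR2 from probe UKv4_A_23_P38630 and SST from UKv4_A_23_P252817, the probe that the supplementary gene table of the paper lists for it. These are 3 of 43291 probes on the array and 3 of the 3504 probes for which that gene table has a symbol. The gene table is a selection of genes that differ between FOXP1 and GFP cells on these same arrays, and NPY, SST and SSTR2 were picked with those differences known. Their differences between FOXP1 and GFP cells are therefore given as descriptions with no test.

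FOXP1 encodes a forkhead transcription factor, and the study asked how its induction alters the transcriptome of SK-N-BE(2), CHP-212 and IMR-32, which are neuroblastoma lines. In each line, cells stably transduced with FOXP1 or with GFP under a doxycycline-responsive promoter (RevTet system, reverse tetracycline-controlled transactivator) were profiled on one-colour arrays after 0, 12, 24 and 72 h. Both transgenes thus came with the same vector system and the same drug, both kinds of culture were polyclonal, and GFP cells served as the control because the promoter leaks, according to the study. This gave 24 arrays in 6 cultures, with 4 arrays per culture that are time points of 1 culture and not separately made cultures, so that each SD and each p measures that spread alone. Each line lay on 2 slides, 1 with the arrays of 0 and 12 h and 1 with those of 24 and 72 h, and no slide held more than 1 line. Line and slide cannot be told apart.

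Neuropeptide Y is a cotransmitter of sympathetic neurons, the lineage from which neuroblastoma arises, and acts through a family of G protein-coupled receptors that includes NPY1R, NPY2R and NPY5R. Somatostatin inhibits hormone release and cell growth in many tissues through receptors coupled to the inhibitory G protein. Of these receptors, SSTR2 is the target of labelled somatostatin analogs used to image neuroblastoma and other neuroendocrine tumors. A cell that makes both a peptide and its receptor can in principle signal to itself or to its neighbours.

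Levels are log2 of the processed signal, the background-subtracted intensity that the authors' scanner software reported, relative to the 75th percentile of the array. A level of 0 is thus a signal at that percentile, and levels of different probes are not comparable, since probes differ in how strongly they bind. A probe counted as present on an array where the scanner software found it well above background. In CHP-212, 53.9 to 60.4% of probes counted as present on the slide of 0 and 12 h against 78.0 to 81.5% on the slide of 24 and 72 h. The lowest signal well above background was 27.2 to 90.0 on the former and 9.18 to 11.0 on the latter. A faint transcript therefore had less chance of being seen on the earlier slide. The FOXP1 probe (UKv4_A_23_P155257) lay between 2.38 and 2.76 on the 4 FOXP1 arrays of IMR-32 and between 1.05 and 1.39 on the GFP arrays. In CHP-212 it lay between 2.81 and 3.28 and between 0.77 and 1.20. In SK-N-BE(2) it lay between 2.63 and 2.97 on the arrays labelled FOXP1 and between 2.81 and 3.30 on the GFP arrays, and it was lower on the array labelled FOXP1 at 4 of 4 time points. The FOXP1 transcript thus was not higher in the SK-N-BE(2) culture that carries its label, and these are called arrays labelled FOXP1 throughout.

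The promoters of the 3 genes are shown because the transcripts differed so widely between cultures and because FOXP1 is a DNA-binding factor. They are the 250 bases before the start of transcription in RefSeq (GRCh38.p14), 5′ to 3′ in the direction of the gene, at chr7:24283940-24284189 on the plus strand for NPY, chr3:187670395-187670644 on the minus strand for SST and chr17:73164760-73165009 on the plus strand for SSTR2. Capitals mark matches to TGACGTCA or TGACGT, the full and the shorter cAMP response element, of which the shorter lies within the full one, and to TATAAA, the TATA box. Forkhead-type motifs were searched as well, namely TGTTTAC, in addition the variant TATTTAT, and as a further variant TATTTGT, and every motif was searched on both strands.
NPY: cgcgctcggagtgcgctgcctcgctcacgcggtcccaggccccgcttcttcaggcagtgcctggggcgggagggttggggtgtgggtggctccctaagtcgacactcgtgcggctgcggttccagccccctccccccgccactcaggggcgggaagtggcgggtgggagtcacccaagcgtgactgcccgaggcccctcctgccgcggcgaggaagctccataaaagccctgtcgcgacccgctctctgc
SST: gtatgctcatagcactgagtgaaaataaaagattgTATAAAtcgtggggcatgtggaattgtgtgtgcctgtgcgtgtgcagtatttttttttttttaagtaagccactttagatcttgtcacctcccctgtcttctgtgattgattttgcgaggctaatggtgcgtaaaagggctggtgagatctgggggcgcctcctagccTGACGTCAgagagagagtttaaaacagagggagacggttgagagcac
SSTR2: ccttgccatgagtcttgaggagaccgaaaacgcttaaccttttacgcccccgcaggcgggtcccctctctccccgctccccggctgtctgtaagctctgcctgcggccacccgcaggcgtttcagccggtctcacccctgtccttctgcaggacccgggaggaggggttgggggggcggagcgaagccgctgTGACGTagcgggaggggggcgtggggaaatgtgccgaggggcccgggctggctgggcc
The SST promoter held TGACGTCA at 47 to 40 bases before the start and TATAAA at 215 to 210 bases. The SSTR2 promoter held TGACGT at 58 to 53 bases, and the NPY promoter held none of the 6 motifs. Of 35116 promoters of this length, 1.65% held the full cAMP response element, 7.10% the shorter element and 10.72% the TATA box. The forkhead-type motifs, in the order given, were held by 2.98, 4.60 and 3.18%. GC content was 71.6% for NPY, 45.6% for SST and 69.2% for SSTR2, with a median of 58% over all promoters. A match describes the letters of the window and is not evidence of a bound site.

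NPY was a bright transcript of SK-N-BE(2) and a faint one in the other lines. In SK-N-BE(2) GFP cells its level was 4.16, 4.82, 4.51 and 4.14 at 0, 12, 24 and 72 h (mean 4.41 ± 0.32, SD, n = 4), and on the arrays labelled FOXP1 it was 3.42, 3.49, 3.19 and 3.63 (3.43 ± 0.18, SD, n = 4). Every array labelled FOXP1 was below every GFP array, although both cultures stood far above all others. In CHP-212, FOXP1 cells were at -1.91, -1.95, -1.53 and -1.65 (-1.76 ± 0.20, SD, n = 4) and GFP cells at -3.99, -4.29, -4.17 and -3.86 (-4.08 ± 0.19, SD, n = 4), with no overlap between the groups. The GFP array of 12 h was the 1 array of 24 on which NPY was not well above background. In IMR-32, GFP cells were at -3.89, -3.53, -4.16 and -3.82 (-3.85 ± 0.26, SD, n = 4) and FOXP1 cells at -4.97, -4.02, -4.94 and -4.53 (-4.61 ± 0.45, SD, n = 4). These groups overlapped through the FOXP1 array of 12 h, which was above the GFP array of 24 h. The order of the means was SK-N-BE(2) GFP, SK-N-BE(2) labelled FOXP1, CHP-212 FOXP1, IMR-32 GFP, CHP-212 GFP and IMR-32 FOXP1, and the last 3 of these overlapped with their neighbours.

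SST was present throughout in SK-N-BE(2) alone. Its level in GFP cells of that line was 0.45, 1.35, 0.73 and 0.35 at 0, 12, 24 and 72 h (0.72 ± 0.45, SD, n = 4), and on the arrays labelled FOXP1 it was -4.74, -4.49, -4.85 and -4.86 (-4.73 ± 0.17, SD, n = 4). In processed signal this is 1680.1 to 2957 against 38.5 to 71.1, so that the culture labelled FOXP1 kept a faint but measurable signal at each time. Fewer cells that make the peptide and less of its RNA per cell cannot be told apart in bulk RNA. In IMR-32, SST was well above background at 12 h alone, at -7.11 in GFP cells and -5.86 in FOXP1 cells, with signals of 12.4 and 26.2 against lowest signals well above background of 11.2 and 12.1 on those arrays. That lowest signal was 8.88 to 12.1 on the IMR-32 slide of 0 and 12 h and 16.2 to 19.6 on that of 24 and 72 h. A signal of 12.4 would thus not have counted as present on the later slide. The remaining 3 arrays of each IMR-32 culture and all 8 CHP-212 arrays were not well above background, so that SST was present on 10 of 24 arrays in all. SK-N-BE(2) GFP cells thus came first and the cells labelled FOXP1 next, with no overlap, and the other 4 cultures cannot be ordered.

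SSTR2, the receptor, was present on 24 of 24 arrays, and its order differed from that of both peptides. IMR-32 GFP cells were at 2.46, 2.32, 2.12 and 2.07 at 0, 12, 24 and 72 h (2.24 ± 0.18, SD, n = 4), and IMR-32 FOXP1 cells at 0.36, -0.02, -0.21 and 0.68 (0.20 ± 0.40, SD, n = 4). The receptor was lower on every FOXP1 array than on any GFP array of this line. CHP-212 showed the opposite, with FOXP1 cells at 2.59, 1.98, 1.62 and 1.94 (2.03 ± 0.41, SD, n = 4) and GFP cells at -1.79, -2.30, -3.23 and -2.91 (-2.56 ± 0.64, SD, n = 4). CHP-212 FOXP1 cells therefore overlapped with IMR-32 GFP cells at the top of the order, and CHP-212 GFP cells were at its foot. SK-N-BE(2) GFP cells were at -1.16, -1.05, -0.99 and -1.63 (-1.21 ± 0.29, SD, n = 4) and the arrays labelled FOXP1 at -1.67, -1.76, -1.15 and -1.69 (-1.57 ± 0.28, SD, n = 4). These overlapped with each other and with no other culture, below IMR-32 FOXP1 cells and above CHP-212 GFP cells.

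**Figure D1:**
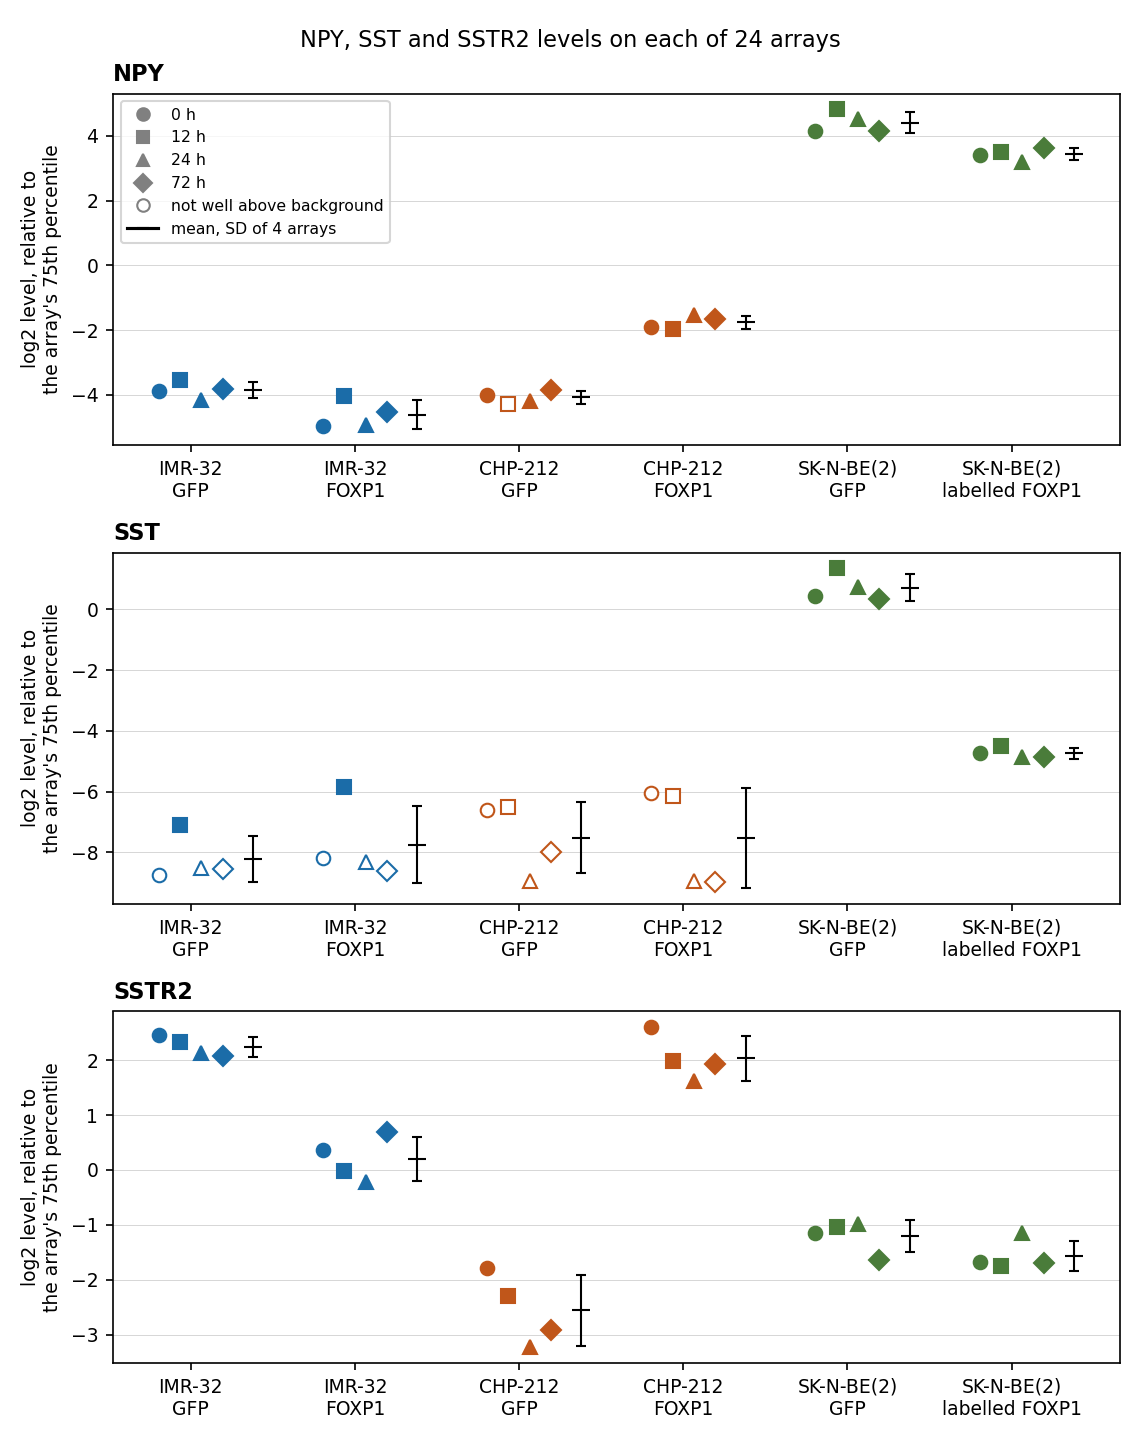
Log2 level of NPY, SST and SSTR2 on each of the 24 arrays, relative to the 75th percentile of the array, by culture and time, with open symbols where the probe was not well above background and bars for the mean and SD of 4 arrays. Both peptides were highest in SK-N-BE(2) GFP cells, at means of 4.41 and 0.72, and SSTR2 was highest in IMR-32 GFP cells, at 2.24.

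The plot of levels by culture shows that the spread over the 4 time points was small beside most differences between cultures. The exceptions are the open symbols of SST in IMR-32 and CHP-212, which are not measured levels of a transcript.

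Set side by side at each time point, FOXP1 and GFP cells differed in SSTR2 in opposite directions in CHP-212 and IMR-32. In CHP-212 the FOXP1 cells exceeded GFP cells in SSTR2 by a log2 difference of 4.59 on average, at 20.9-, 19.4-, 28.8- and 28.8-fold at 0, 12, 24 and 72 h. In IMR-32 the difference in SSTR2 was -2.04 on average (4.11-fold lower in FOXP1 cells), at -2.10, -2.34, -2.34 and -1.39. Both differences were present at 0 h, the arrays taken at the start of doxycycline, at 4.38 and -2.10. In SK-N-BE(2) the arrays labelled FOXP1 differed from GFP arrays in SSTR2 by -0.52, -0.71, -0.16 and -0.06, with overlapping groups, and the FOXP1 transcript was not higher on them.

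NPY in CHP-212 was higher in FOXP1 cells at each time, by 2.08, 2.34, 2.64 and 2.21, which is at least 4.99-fold on average. Here and for other dim probes, "at least" marks a bound in which each array of the dimmer culture was set to its own signal or to the lowest signal well above background on that array, whichever was higher. In IMR-32 the NPY difference was -1.09, -0.48, -0.78 and -0.71, lower in FOXP1 cells at 4 of 4 time points, with a mean of -0.77. That direction was not seen after normexp background correction, under which the NPY difference was 0.011 and the median of all probes tested in IMR-32 was 0.22 in place of -0.01. On the arrays labelled FOXP1 of SK-N-BE(2), with no higher FOXP1 transcript, NPY differed from GFP cells by -0.74, -1.33, -1.32 and -0.51, a mean of -0.98. SST on those arrays differed by -5.19, -5.84, -5.58 and -5.21, a mean of -5.46, or 43.9-fold lower than in GFP cells, and by a mean of -4.32 after normexp correction. The 1 time point at which SST could be compared in IMR-32 was 12 h, where it was higher in FOXP1 cells by 1.25.

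**Figure D2:**
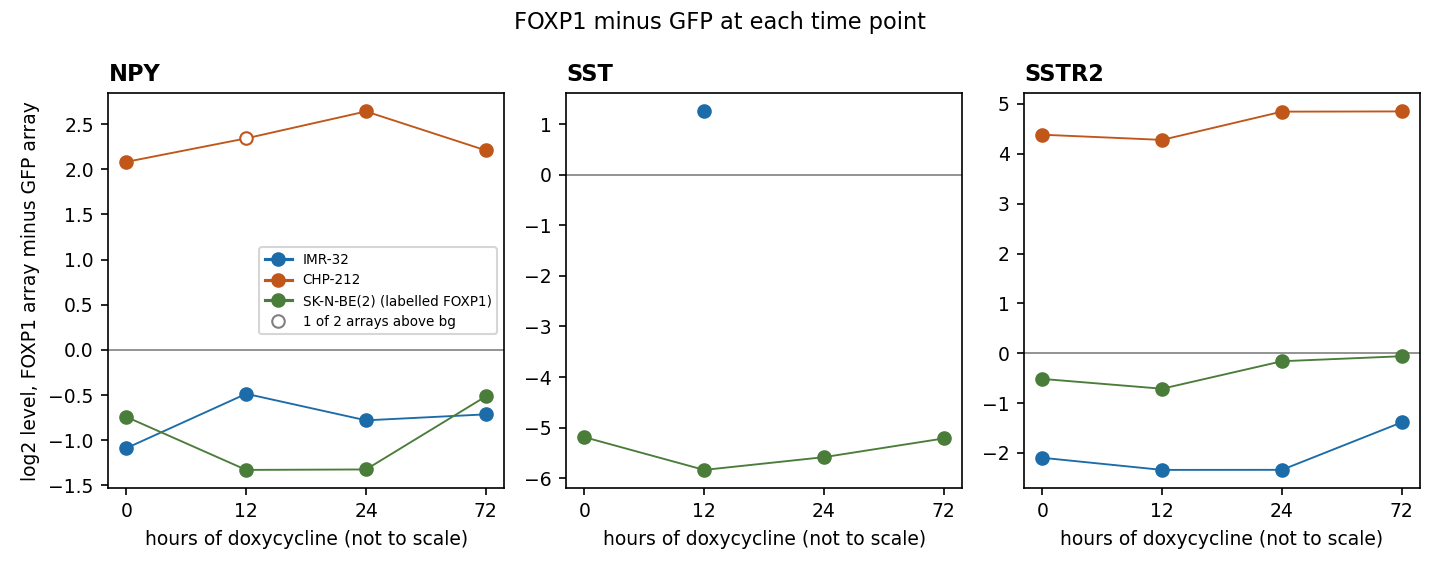
Difference in log2 level between the FOXP1 array and the GFP array of the same line and time for NPY, SST and SSTR2, against hours of doxycycline, with an open symbol where 1 of the 2 arrays was well above background and none drawn where neither was. The SSTR2 differences of CHP-212 lay between 4.28 and 4.85, those of IMR-32 between -2.34 and -1.39, and the SST differences of SK-N-BE(2) (labelled FOXP1) between -5.84 and -5.19.

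The plot of differences by time shows each line keeping to its own side of 0 for NPY and SSTR2 at all 4 time points, except that the mean of NPY in IMR-32 was 0.011 after normexp correction. These are the values from which the genes were picked, and they test nothing. A probe was called by limma where its difference was at least 2-fold with an adjusted p below 0.05. In IMR-32 this took 12.2% of all probes tested (6.34% higher and 5.86% lower in FOXP1 cells). CHP-212 had 3.02% (1.93 and 1.08%), and SK-N-BE(2) had 0.711% on arrays labelled FOXP1 (0.426 and 0.285%). NPY and SSTR2 passed the filter on dim probes (well above background on at least 4 arrays) in each of these comparisons and SST in SK-N-BE(2) alone.

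SST and SSTR2 transcripts were found together in both SK-N-BE(2) cultures, on 4 of 4 arrays in each. In IMR-32 they coincided on 1 of 4 arrays of each culture, that of 12 h, and in CHP-212 on none, because SST was not well above background there. Peptide and receptor were thus both present on 10 of 24 arrays, all 10 on which SST was present. The cultures richest in SSTR2, IMR-32 GFP and CHP-212 FOXP1 cells, had SST on 1 and 0 of 4 arrays. Other receptors for somatostatin (SSTR1, SSTR3, SSTR4, SSTR5) and the related ligand CORT could not be read, since the part of the gene table that was available has no probe for them.

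The receptor found beside NPY differed between lines. NPY2R, a receptor found on sympathetic nerve endings, was well above background together with NPY on 4 of 4 arrays in IMR-32 FOXP1 cells and in both SK-N-BE(2) cultures. In SK-N-BE(2) GFP cells NPY2R was at 1.57, 1.71, 1.24 and 0.91 (1.36 ± 0.36, SD, n = 4) and on the arrays labelled FOXP1 at 0.49, 0.96, 0.44 and -0.18 (0.43 ± 0.46, SD, n = 4). These groups overlapped, although the array labelled FOXP1 was lower at 4 of 4 times. In IMR-32 FOXP1 cells it was at -0.11, -0.26, -0.22 and 0.46 (-0.03 ± 0.33, SD, n = 4), and in GFP cells of that line no array had it well above background, which makes it at least 92.9-fold higher in FOXP1 cells. After normexp correction the log2 difference in NPY2R was 4.39, less than this bound. IMR-32 GFP cells thus had NPY on 4 of 4 arrays with none of the 3 NPY receptors that could be read.

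In CHP-212, NPY1R and NPY5R, neighbouring receptor genes that mediate vascular and feeding effects of the peptide, were present instead, with NPY2R on 1 of 8 arrays. Both were well above background on 8 of 8 CHP-212 arrays and on no array of the other lines. NPY1R was at -3.02, -1.93, -2.14 and -2.02 in GFP cells (-2.28 ± 0.50, SD, n = 4) and at -1.01, 0.42, -0.07 and 1.04 in FOXP1 cells (0.10 ± 0.86, SD, n = 4). NPY5R was at -2.14, -1.68, -1.99 and -1.79 in GFP cells (-1.90 ± 0.20, SD, n = 4) and at -0.69, -0.02, -0.39 and 0.48 in FOXP1 cells (-0.15 ± 0.50, SD, n = 4). All FOXP1 arrays were above all GFP arrays for both receptors, as they were for NPY in the same culture. NPY coincided with each of them on 4 of 4 FOXP1 arrays and 3 of 4 GFP arrays, where the 12 h array fell out for the peptide.

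Other peptides and receptors of the list, for which a probe could be read, gave a similar variety of pairs. VIP and its receptor VIPR1 were present together on 4 of 4 arrays of IMR-32 GFP cells and on none of IMR-32 FOXP1 cells, where VIP was on 4 of 4 arrays and VIPR1 on 0. VIPR2, a second receptor for VIP, was present together with VIP on 4 of 4 arrays of IMR-32 GFP cells, 3 of 4 of IMR-32 FOXP1 cells and 4 of 4 in both SK-N-BE(2) cultures. PENK, the enkephalin precursor, and the delta opioid receptor OPRD1 coincided on 4 of 4 arrays in IMR-32 FOXP1 cells alone, with at most 1 of 4 in any other culture. PNOC and its receptor OPRL1 coincided on 4 of 4 arrays in FOXP1 cells of both IMR-32 and CHP-212, and on 2 and 1 of 4 in the GFP cells of those lines. In SK-N-BE(2) they coincided on 3 of 4 arrays labelled FOXP1, without a higher FOXP1 transcript, and on 1 of 4 GFP arrays. PDYN, the dynorphin precursor, was present on 0 of 24 arrays. Presence of both transcripts in a culture does not say that the same cell makes both, nor that either protein is made.

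**Figure D3:**
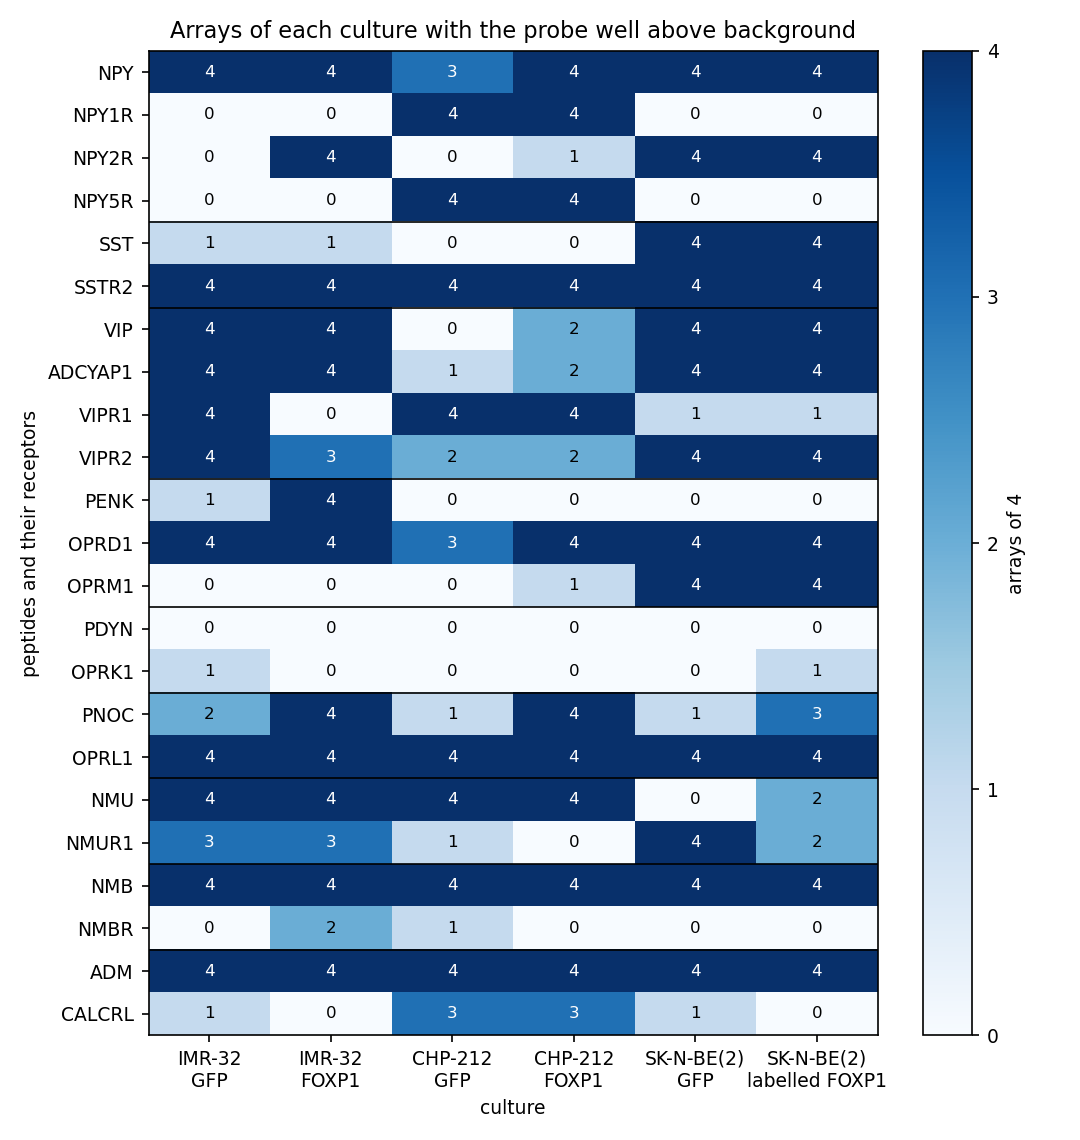
Number of the 4 arrays of each culture on which the probe was well above background, for peptides and their receptors grouped by black lines. SST filled both SK-N-BE(2) cultures and 1 array in each IMR-32 culture, SSTR2 filled all 6 cultures, and NPY was accompanied by NPY2R in IMR-32 FOXP1 and SK-N-BE(2) cells and by NPY1R and NPY5R in CHP-212.

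The grid of detection counts shows that SSTR2 had no empty cell while its ligand SST had 2, and that no NPY receptor filled every culture in which NPY was found. Cells with a count of 1 to 3 depend on the lowest signal that an array can show as well as on the level of the transcript, above all in CHP-212 on the slide of 0 and 12 h.

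The GFP cells of the 3 lines were compared to ask where each transcript stands without the FOXP1 transgene. Against SK-N-BE(2), NPY was 306-fold lower in IMR-32 (log2 difference -8.26 ± 0.19, SE, adjusted p = 1.86e-11) and at least 359-fold lower in CHP-212 (-8.49 ± 0.19, SE, adjusted p = 1.10e-11), with 4 of 4 arrays lower in each. SST was at least 152-fold lower in IMR-32, where 1 of 4 arrays was well above background, and at least 72.3-fold lower in CHP-212, where none was. Over the alternatives, the smallest log2 difference in SST was -5.12 in IMR-32 and -5.03 in CHP-212, less than these bounds. For NPY it was -7.53 in IMR-32 and -7.62 in CHP-212. The folds and bounds are thus those of the main processing. No test is given for SST, since it passed the filter on dim probes through its SK-N-BE(2) arrays alone. Again against SK-N-BE(2), SSTR2 was 10.9-fold higher in IMR-32 (3.45 ± 0.28, SE, adjusted p = 9.18e-07) and 2.55-fold lower in CHP-212 (-1.35 ± 0.28, SE, adjusted p = 0.00144). Between CHP-212 and IMR-32 it differed by -4.80 ± 0.28 (SE, 27.9-fold lower in CHP-212, adjusted p = 2.15e-08), again with all arrays of one line below all arrays of the other. The line with the most NPY and SST was thus not the line with the most SSTR2.

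CHP-212 and IMR-32 GFP cells were not told apart by either peptide. NPY differed by -0.23 ± 0.19 (SE, adjusted p = 0.354) between CHP-212 and IMR-32, with overlapping groups, and SST was near background in both lines. The tests were made with limma on the 12 GFP arrays, in which 30.5% of 35238 probes were called between CHP-212 and IMR-32, 30.4% between CHP-212 and SK-N-BE(2) and 25.0% between IMR-32 and SK-N-BE(2). Against that background, SSTR2 was called in all 3 comparisons and NPY in both comparisons with SK-N-BE(2). With the slide as a random block (correlation 0.311), the same calls were made, the highest adjusted p among them being 0.00397 for SSTR2 between CHP-212 and SK-N-BE(2). The GFP arrays are also the control arrays of the contrast from which the genes were picked, so that these tests are not fully independent of that choice.

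The NPY receptors also stood apart between the GFP lines. Relative to SK-N-BE(2), NPY2R was at least 243-fold lower in IMR-32 and at least 112-fold lower in CHP-212, in both cases with 0 of 4 arrays well above background in the lower line. NPY1R was at least 19.6-fold higher in CHP-212 than in IMR-32 and at least 16.8-fold higher than in SK-N-BE(2). For NPY5R the bounds were 25.4-fold and 21.7-fold. No test is given for these receptors, since each passed the filter through the 1 line in which it was present. Of a wider list of neuropeptide genes, 28 were tested, these receptors included. Of them, 10 were higher and 6 lower in CHP-212 than in IMR-32, beside 16.0 and 14.5% of all probes. In CHP-212, 9 were higher and 12 lower than in SK-N-BE(2), beside 14.8 and 15.7%. In IMR-32, 4 were higher and 15 lower relative to SK-N-BE(2), beside 11.3 and 13.7%. The list medians were 0.34, -0.86 and -1.22, beside 0.07, -0.11 and -0.20 over all probes tested.

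SK-N-BE(2) GFP cells also stood out by high CRH and VIP. CRH, which encodes corticotropin-releasing hormone, was 78.7-fold higher there than in CHP-212 (log2 difference of CHP-212 against SK-N-BE(2) -6.30 ± 0.46, SE, adjusted p = 2.11e-07) and at least 4820.3-fold higher than in IMR-32, where 2 of 4 arrays were well above background (adjusted p = 4.21e-10). VIP, a vasoactive peptide of autonomic neurons, was 63.6-fold higher there than in IMR-32 (-5.99 ± 0.46, SE, adjusted p = 5.94e-07). NMU, the neuromedin U precursor, went the other way and was at least 68.7-fold higher in IMR-32 and at least 178-fold higher in CHP-212 than in SK-N-BE(2), where it was present on 0 of 4 GFP arrays. NPW, the neuropeptide W precursor, was brightest in IMR-32, at least 174-fold above SK-N-BE(2) with 2 of 4 arrays (adjusted p = 1.67e-07). Because the gene table chose these genes on the same GFP arrays, their number is not independent evidence of a direction. They were also singled out here for these same values, so that each adjusted p is a description and no support. For NPW in SK-N-BE(2) and CRH in IMR-32, that p rests in part on arrays near background.

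Time in doxycycline was asked about next, over all 6 cultures with the culture as a block, first within the slide of 0 and 12 h and then within the slide of 24 and 72 h. Neither NPY nor SSTR2 was called in either comparison. From 0 to 12 h NPY differed by 0.28 ± 0.18 (SE, adjusted p = 0.589) and SSTR2 by -0.27 ± 0.13 (SE, adjusted p = 0.462). SST was highest on the 12 h array in each of the 4 cultures of SK-N-BE(2) and IMR-32, the cultures that had it above background at all. In IMR-32 the arrays of the other times were near background, so that their SST values are not measured levels. Between 24 and 72 h NPY differed by 0.17 ± 0.14 (SE, adjusted p = 0.661) and SSTR2 by 0.05 ± 0.21 (SE, adjusted p = 0.935). No test over time is given for SST, which was present on 6 of the 12 arrays of 0 and 12 h and on 4 of the 12 of 24 and 72 h.

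The background of the time comparisons was 1.38% of 35099 probes called from 0 to 12 h (0.0114% higher and 1.36% lower at 12 h) and 0% of 35985 from 24 to 72 h, where limma gave 3211 probes at an unadjusted p under 0.05. Of the neuropeptide list, 0 of 25 genes tested were called from 0 to 12 h by limma, with 2 at an unadjusted p under 0.05, and 0 of 28 from 24 to 72 h, with 5. NPY1R, NPY2R and NPY5R were not called at either step, and each was near background in some of the cultures. A p above the limit does not show that levels were constant, and FOXP1 and GFP cultures were pooled here.

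Of the wider neuropeptide list, 34 of 85 genes could be read. In IMR-32, 11 of 24 genes tested were called higher in FOXP1 cells and 5 lower, beside 6.34 and 5.86% of all probes, and the list median was 0.97 beside -0.01. The higher genes included the NPY receptor NPY2R, the granins CHGB (2.82) and SCG2 (1.86), which pack peptides into dense-core vesicles, and the peptide precursors PENK, CRH, CARTPT (3.87), NMU (2.54) and ADM (3.11). For dim probes only a bound can be given, at least 7.17-fold for PENK, 21.5-fold for CRH, 47.8-fold for the galanin receptor GALR1 and 34.3-fold for NPFFR2, and RAMP1 (1.28) completed the higher genes. Lower in FOXP1 cells were ADCYAP1 (-1.21), NMB (-1.65), OPRL1 (-1.41), VIPR1 (at least 5.64-fold) and NPW (at least 179.6-fold). Under normexp correction 12 of the 16 were called, without PENK, ADCYAP1, OPRL1 and VIPR1. The log2 differences were then 2.61 for CRH, 3.47 for GALR1, 2.96 for NPFFR2 and -4.87 for NPW, less than the bounds given, and 2.53 for CARTPT. Blocking by time point called VIP (1.24) and VIPR2 (-1.39) in addition, which gave 18 genes. VIPR2 was also called under quantile normalization, on the authors' table and without the FOXP1 array of 12 h, VIP with the slide as a block, and both with all 24 arrays in 1 fit. NPY2R and NPFFR2 passed the filter through the FOXP1 arrays alone and VIPR1 through the GFP arrays alone, so that their calls support nothing. The same holds for PENK, which had 1 of 4 GFP arrays well above background and needed its 4 FOXP1 arrays to pass. CRH and GALR1, with 2 of 4 GFP arrays, and NPW, with 2 of 4 FOXP1 arrays, also passed through the brighter culture. Their calls carry the same limit. Without 0 h or any 1 FOXP1 array NPY2R and NPFFR2 had no call. Nothing is read from these counts, since all readable genes were chosen by the study for differing in at least 1 line, and they are not independent evidence of a direction.

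The FOXP1 cells of CHP-212 had 8 of 21 list genes tested called higher and 0 lower by limma, beside 1.93 and 1.08% of all probes, with a list median of 0.60 beside 0.02. The 8 were NPY1R (2.37), NPY5R (1.75), PNOC (at least 7.45-fold), CRH (2.74), VIPR1 (2.38), ADM (1.91), SCG5 (at least 2.52-fold) and PAM (1.00), an enzyme that amidates NPY and other peptides. At an unadjusted p under 0.05, limma gave 10 list genes in either direction. Without the arrays of 0 and 12 h, an alternative added after seeing the data, 3 were called, namely ADM, CRH and VIPR1. PAM lay at the 2-fold limit and was not called under normexp or quantile normalization, on the authors' table, with no filter on dim probes, by the test named in the methods of the paper, without 0 h or without any 1 GFP array. SCG5 was not called under normexp, NPY1R by the test of the methods or without the FOXP1 array of 12 h, or VIPR1 with all 24 arrays in 1 fit. PNOC had a log2 difference of 1.82 under normexp, less than its bound. VIPR1 was lower in FOXP1 cells of IMR-32 and higher in those of CHP-212, a difference that was not tested, and its IMR-32 call, made through the GFP arrays alone, was lost under normexp, without 0 h and without any 1 GFP array.

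In SK-N-BE(2), whose arrays labelled FOXP1 had no higher FOXP1 transcript, 0 of 23 list genes tested were called by limma, beside 0.711% of all probes. At an unadjusted p under 0.05 limma gave 6, and the test named in the methods of the paper, with the same adjustment, called 0. The list median was 0.04 beside -0.01. PCSK1, a convertase that cleaves neuropeptide precursors including that of somatostatin, was well above background on 4 of 4 GFP arrays and 0 of 4 arrays labelled FOXP1, at least 1.83-fold lower on the latter. It passed the filter through the GFP arrays alone, so that its calls support nothing. They were made under quantile normalization, on the authors' table, with the slide or the time point as a block and without the array labelled FOXP1 of 24 h, and CARTPT (1.11) was called with the time point as a block.

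**Figure D4:**
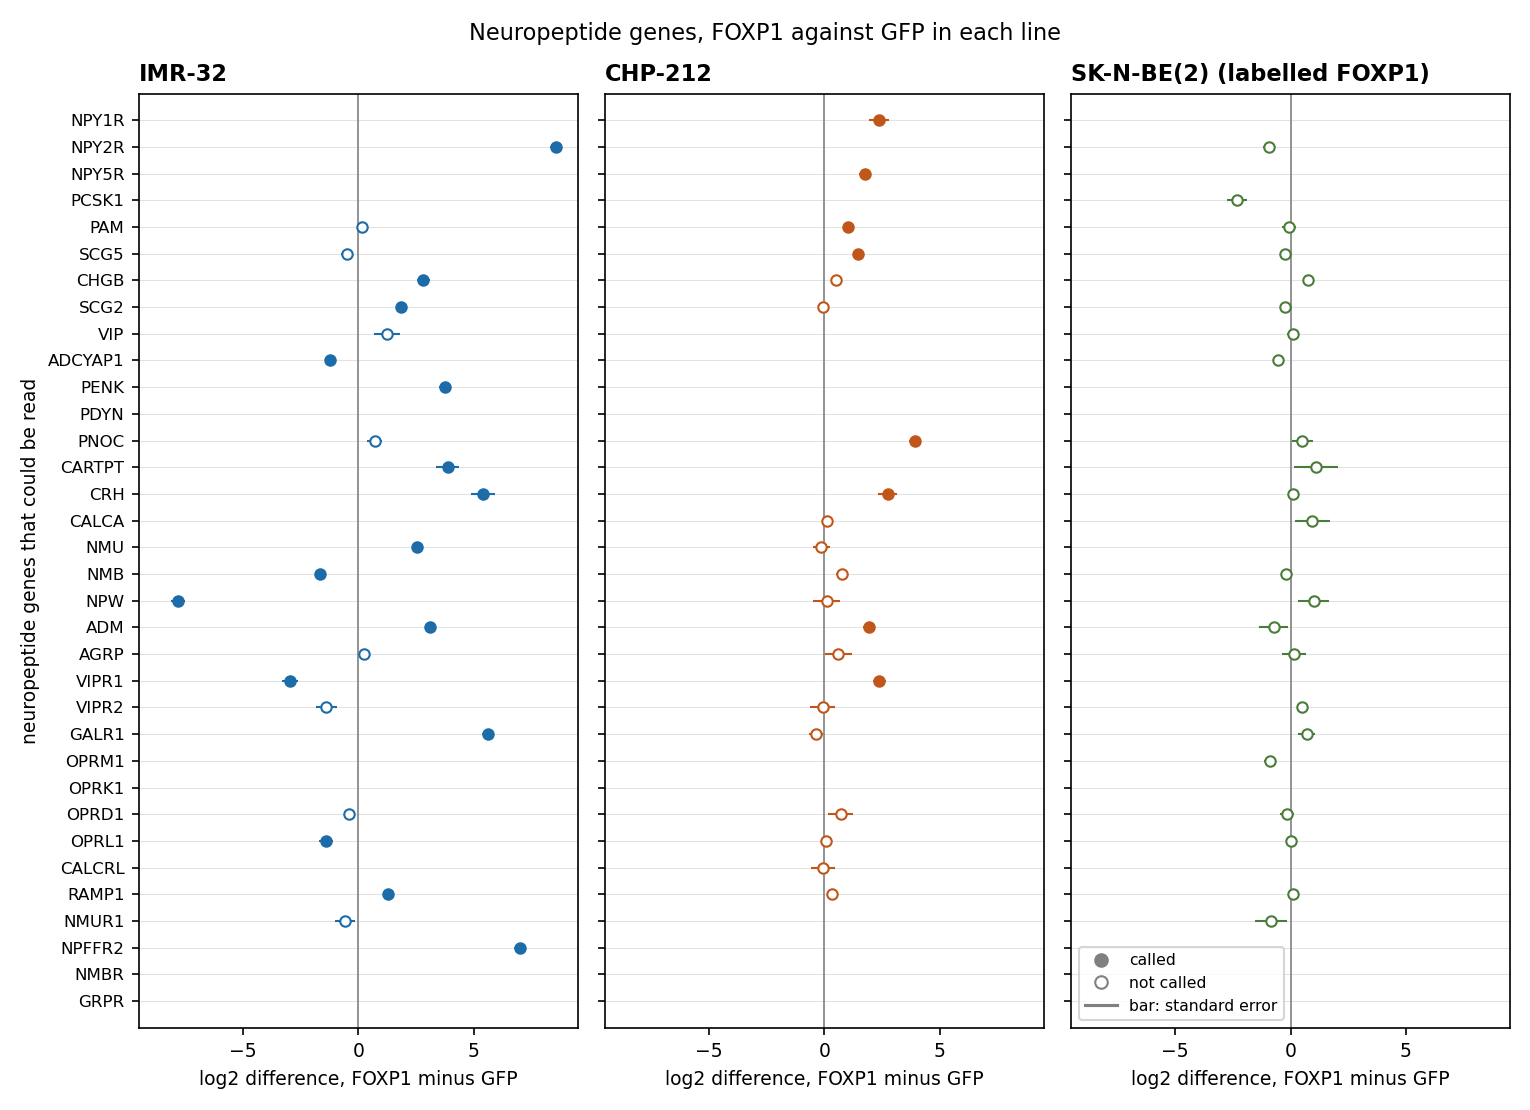
Log2 difference between FOXP1 and GFP cells with its standard error for the 34 neuropeptide genes that could be read, by line, filled where called and absent where the probe was too dim to be tested. The genes called higher and lower were 11 and 5 in IMR-32, 8 and 0 for CHP-212, and 0 and 0 with limma for SK-N-BE(2) (labelled FOXP1), and differences of dim probes are not bounds.

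The plot of the neuropeptide genes shows the called genes of IMR-32 on both sides of 0 and those of CHP-212 on the higher side. No gene of the NPY receptor class was tested in all 3 lines, and NPY2R stands at opposite sides of 0 in IMR-32 and SK-N-BE(2) with a call in IMR-32 only. Differences between lines were not tested.

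By likeness over the 24 arrays, measured as Pearson's r of log2 levels against 33150 other probes, NPY and SSTR2 each had close neighbours. Those most like NPY were UKv4_A_24_P375691 (r = 0.984), UKv4_A_24_P631848 (0.982) and UKv4_A_23_P422911 (0.978). Like NPY, these stood higher in both SK-N-BE(2) cultures than elsewhere, for example UKv4_A_23_P422911 at 2.28 ± 0.23 (SD, n = 4) in SK-N-BE(2) GFP cells and -4.75 ± 0.50 (SD, n = 4) in CHP-212 GFP cells, where 2 arrays were well above background. Those most like SSTR2 were UKv4_A_23_P318800 (0.994), UKv4_A_32_P6575 (0.904) and, just behind it, UKv4_A_23_P207461, which the gene table names as CA10. For SST they were UKv4_A_23_P30655 (0.918), UKv4_A_23_P40574 (0.909) and UKv4_A_32_P40437 (0.902), which rest on an SST signal that was near background on 14 arrays. The other probes have no symbol there. NPY and SST had r = 0.85 with each other, NPY and SSTR2 r = -0.36 and SST and SSTR2 r = -0.38, over arrays that fall into 6 cultures and are not independent.

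The cultures were checked for markers of the sympathetic lineage, of which TH, DBH and CHGB are given. TH, the first enzyme of catecholamine synthesis, was well above background on 24 of 24 arrays, DBH on 21 and CHGB on 20. In CHP-212 GFP cells DBH and CHGB were on 2 of 4 arrays each. The markers moved beside the peptides and the receptor in part. Between FOXP1 and GFP cells, TH, DBH and CHGB differed by 3.33, 3.85 and 2.82 in IMR-32 and by -0.07, 0.54 and 0.77 in SK-N-BE(2), on arrays labelled FOXP1 without a higher FOXP1 transcript. In CHP-212, TH differed by 0.23. Of the markers of fibroblast or mesenchymal cells 1 of 6 could be read, PRRX1, which was present on 0 of 24 arrays, and of those of Schwann cells 0 of 4. The part of cell identity in the levels of NPY, SST and SSTR2 was not tested.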

How the data were processed

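RNA of 6 cultures at 4 time points was measured on 24 one-colour arrays. Per the file headers, the deposited processed signal is an intensity from which the authors' scanner software had subtracted background and trends within the array, with no normalization between arrays. The deposited median spot and surrounding signals are intensities without correction, and the authors' series table holds intensities whose sorted values are nearly equal on all arrays, as quantile normalization leaves them. Without control spots and 311 outlier spots, each log2 processed signal was taken minus the 75th percentile of the array. FOXP1 against GFP within each line, the 12 GFP arrays by line, and 12 against 0 h and 72 against 24 h with the culture as a block were fitted with limma 3.58.1 (lmFit, eBayes) in R 4.3.3, two-sided, on probes well above background on at least 4 arrays, with Benjamini-Hochberg adjustment over all probes tested. Calls needed a 2-fold difference and an adjusted p below 0.05. The fits were tested on simulated data. Tables and figures used Python 3.11.15, numpy 2.4.6, pandas 2.3.3 and matplotlib 3.10.9. Depth was taken as each array's signal over background, and the number of arrays limits the precision.

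Within a line, each FOXP1 array has a GFP array of the same time on its slide. After subtraction of group means, these pairs correlated at 0, 12, 24 and 72 h with 0.426, 0.601, 0.375 and 0.438 for IMR-32. For CHP-212 the values were 0.0534, 0.491, 0.549 and 0.445, and for SK-N-BE(2) 0.369, 0.670, 0.584 and 0.435. The unpaired comparison was kept, and blocking by time point was among the alternatives.

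Symbols came from the supplementary gene table of the paper. The entries used were 642 of 855 in SK-N-BE(2), all 1489 in CHP-212 and 1997 of 2370 in IMR-32. Of 3504 probes with a symbol, 3131 were matched to RefSeq by accession. The genes named are NPY, SST and SSTR2, the 3 probes most like each of them, the family members of NPY and SST, and every called gene of a list of 85 neuropeptide, receptor and processing genes, of which 34 could be read. The 3 genes and the lists were chosen with earlier results of these data known. CRH, NMU, NPW, VIP and the pairs of other peptides with receptors were singled out for their values.

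Alternatives were normexp background correction (offset 50, planned on the mean spot signal, which the files lack, and run on the median), quantile normalization, the authors' table, looser and stricter filters on faint signals, blocks by time point or by slide, no culture block, the test named in the methods of the paper with Benjamini-Hochberg adjustment, all 24 arrays in 1 fit, fewer time points and leaving out each array or culture in turn. Probe sequences and proteins were not available and are not shown.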

Additional observations from a re-analysis of the deposited data

Results flagged for a closer look

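In groups of 4 arrays, an array counted as standing apart when its distance to the nearest other array, divided by the range of the group, passed the usual critical value of Dixon's test. The screen took 46 groups, which are not all groups of the genes described. Chance alone marks about 1 in 20 groups. SST stood apart at 12 h in IMR-32 GFP cells, at a log2 level of -7.11, and at 12 h in IMR-32 FOXP1 cells, at -5.86, the 2 arrays of this line on which it was well above background. SSTR2 stood apart at 24 h in SK-N-BE(2) cells labelled FOXP1, at -1.15, above the other 3 arrays. VIPR1 stood apart at 24 h in the same culture, at -3.74, and VIPR2 at 72 h in CHP-212 FOXP1 cells, at -4.68. The SK-N-BE(2) array labelled FOXP1 of 24 h also differed as an array. Its lowest signal well above background was 27.7, against 10.6 to 12.1 on the other 3 arrays of the culture, and it held 1 saturated spot. Whether this bears on the SSTR2 and VIPR1 flags was not tested.

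A further set of differences between lines was marked because all 4 pairs of FOXP1 and GFP arrays moved one way in 1 line and the opposite way in another. These differences between lines were not tested. For NPY, the FOXP1 minus GFP difference of IMR-32 minus that of CHP-212 was -3.08, and CHP-212 minus SK-N-BE(2) was 3.29. For SSTR2, IMR-32 minus CHP-212 was -6.63, and CHP-212 minus SK-N-BE(2) was 4.95. The FOXP1 probe itself gave 1.60 for IMR-32 minus SK-N-BE(2) and 2.18 for CHP-212 minus SK-N-BE(2), where the transcript was lower on all 4 arrays labelled FOXP1. NPY2R gave 9.48 for IMR-32 minus SK-N-BE(2), and since no IMR-32 GFP array was well above background, this gives the direction and not a measured size. The same holds for VIPR1, with -5.35 for IMR-32 minus CHP-212 and no IMR-32 FOXP1 array well above background. VIPR2 gave -1.90 for IMR-32 minus SK-N-BE(2).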

How the results depend on the processing

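In the GFP cells, each call of NPY and SSTR2 held under every alternative that gave it a value and without each array in turn, and SST stayed lower in IMR-32 and CHP-212 than in SK-N-BE(2). NPY and SST had no value with probes on all 12 GFP arrays. SSTR2 between CHP-212 and SK-N-BE(2) ranged from -1.86 to -1.05, with adjusted p from 7.45e-05 to 0.00397, and up to 0.00571 without 1 array. The SST difference of CHP-212 against IMR-32, near background in both lines, turned to -0.11 under quantile normalization and -0.11 on the authors' table. It was -0.25 without the CHP-212 arrays of 0 and 12 h, an alternative added after seeing the data. No test of it is given. Over time SST was near background on most arrays outside SK-N-BE(2), and its values are no measured change. From 0 to 12 h it was -0.061 under normexp. Between 24 and 72 h, normexp gave -0.33 for NPY and -0.63 for SST, and leaving out both CHP-212 cultures, also added after seeing the data, gave -0.18 for SST and -0.083 for SSTR2. Without 1 culture at a time these ran from -0.16 to 0.088 for SST, to which 4 cultures gave a value, and from -0.12 to 0.19 for SSTR2. The cause was not tested.

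Between FOXP1 and GFP cells, normexp gave 0.011 for NPY in IMR-32, 1.72 for NPY and 0.43 for SST in CHP-212, and -4.32 for SST in SK-N-BE(2). SST in CHP-212 was 0.46 at 0 and 12 h alone. Without 1 array at a time SST ran from -0.16 to 0.84 in IMR-32 and from -0.50 to 0.47 in CHP-212, both near background. The other differences of the 3 genes kept their direction. Normexp moved the median of all probes to 0.22 in IMR-32 and 0.14 in CHP-212, from -0.01 and 0.02, and to -0.11 from 0 to 12 h and -0.22 between 24 and 72 h, from 0.02 and -0.04. Of the called probes, 63.6% were then higher in IMR-32 and 75.8% in CHP-212, in place of 52% and 64.1%. Quantile normalization moved the median of CHP-212 against IMR-32 from 0.07 to -0.05 and that of IMR-32 against SK-N-BE(2) from -0.20 to -0.06, and normexp that of CHP-212 against SK-N-BE(2) from -0.11 to 0.03.

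Counts of called probes moved most in SK-N-BE(2), from 242 to 477 with the time point as a replicate block and 31 without 0 h, and to between 112 and 199 without 1 array. The t-test named in the methods of the paper, with the 2-fold limit, gave 121 there with Benjamini-Hochberg adjustment and 537 at an unadjusted p under 0.05. In CHP-212 the counts of called probes were 599 under normexp, 627 with probes on all 8 arrays, 638 without 0 h and 475 without the arrays of 0 and 12 h, from 994. The same t-test gave 646 there with adjustment and 1374 at an unadjusted p under 0.05. IMR-32 had 1458 under normexp, from 4123. With the time point as a block IMR-32 had 4376 and CHP-212 1169. With probes on all 12 GFP arrays the counts were 6072, 6383 and 5009 for CHP-212 against IMR-32, CHP-212 against SK-N-BE(2) and IMR-32 against SK-N-BE(2), and normexp gave 5513 for the last. From 0 to 12 h there were 259 with probes on all 12 arrays, 65 with no culture block, 737 without CHP-212 and 295 to 644 without 1 culture. Stricter filters test fewer probes, and the cause of the other changes was not tested.

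List genes called were 9 in IMR-32 with probes on all 8 arrays and 18 with the time point blocked, from 16, 3 in CHP-212 without 0 and 12 h, and in SK-N-BE(2) 1 under quantile normalization, on the authors' table and with slides blocked, 2 with time points blocked and 0 to 1 without 1 array. A probe too dim under a filter has no value there, which is so for SST under each stricter filter and for NPY under those that take in the CHP-212 GFP array of 12 h. Signal over background limits SST in IMR-32 and CHP-212 and every faint transcript on the CHP-212 slide of 0 and 12 h, where absence from an array does not show absence from the cells.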
